A study of Mus musculus with 4 samples.

Results

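The genes described here are 10 genes that fibroblasts use to build and tune the extracellular matrix: the small leucine-rich proteoglycan genes Lum, Dcn, Bgn, Ogn and Prelp, the matricellular protein genes Postn, Thbs1, Thbs2 and Sparc, and the receptor gene Pdgfra. They were chosen by symbol, and all 10 matched exactly 1 of the 55401 Ensembl gene identifiers in the deposited count table. RNA-seq had been run on mouse tissue lying beside pancreatic tumours, with 2 libraries from CRFR1-KO mice and 2 from WT mice. The labels name Panc02, a mouse pancreatic ductal adenocarcinoma line, for both genotypes, so both groups come from tumour-bearing animals. CRFR1 is the receptor for the stress peptide corticotropin-releasing factor, and the series title asks about its role in mast cells in pancreatic cancer pain. The knockout is called conditional, but the sources used here give no Cre driver, no target cell type, and neither age nor strain of the animals. The labels do not say whether the 2 libraries of a genotype come from different mice. A p-value here is thus set against library-to-library spread alone, and that spread may be technical.

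Small leucine-rich proteoglycans are secreted proteins with a curved repeat domain, most of them carrying glycosaminoglycan chains, that coat collagen fibrils and set their diameter and spacing. Matricellular proteins sit in the same matrix but signal rather than bear load, by binding integrins, growth factors and other receptors on cells. In the pancreas these genes are made mainly by resident fibroblasts and by stellate cells, and they are known to be abundant in the fibrous stroma around pancreatic tumours.

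Each library held between 63495457 and 71203640 deposited counts. Crhr1, the gene behind CRFR1, had a count of 0 in all 4 libraries, so it offers no check of the genotypes, and a count of 0 allows a level of up to 0.0472 CPM (counts scaled to the size of the library, here to its total count). The tissue was exocrine pancreas by its markers, with a summed level of the 22 acinar genes of 511219 to 583407 CPM in CRFR1-KO and 421401 to 553579 CPM in WT. The 10 genes together took 0.0117% and 0.0142% of the counts in CRFR1-KO 1 and 2, against 0.0299% and 0.0173% in WT 1 and 2. WT 1 stood apart from WT 2. Of 9027 gene models with a mean of at least 2 CPM, 234 (2.59%) were over 2-fold higher in WT 1 than in WT 2, and 5 of the 10 genes were among them, namely Lum, Bgn, Postn, Thbs2 and Sparc. Over 2-fold apart in either direction were 1.76% of the same gene models between the CRFR1-KO libraries and 4.29% between the WT libraries, and none of the 10 genes differed over 2-fold between the CRFR1-KO libraries. Fold changes of the 10 genes and medians of the related gene lists are therefore also given without WT 1.

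Over the whole table, 4 of 15131 tested gene models passed the edgeR quasi-likelihood test at a Benjamini-Hochberg adjusted p under 0.05, or 0.0264%. All 10 genes entered the test, and 0 of 10 passed, against 0.0132% of all gene models passing as lower. Of all 15131 tested gene models, 735 (4.86%) had an unadjusted edgeR p under 0.05 in either direction, and most of these, 477 (3.15% of all), were lower. At that p, 6 of the 10 genes were lower in CRFR1-KO and 0 were higher. With a replicate block that count of 6 was 4, where 373 of 15131 gene models were lower at that p. Fits with a library left out rest on a lone library of a genotype, so no count at that p is given for them. The DESeq2 Wald test called 1 of 10, Postn, against 0.303% of all gene models called lower, and limma-voom called 0 of 10. Both CRFR1-KO libraries lay below both WT libraries for 8 of the 10 genes, against 16.9% of all tested gene models. The log2 fold change of CRFR1-KO over WT was below 0 for 9 of 10, against 50.8% of all gene models, and its median over the 10 genes was -0.83, against -0.01 over all tested. Without WT 1 the median of the 10 genes was -0.61 and 9 of 10 stayed below 0. Without WT 2 the median was -0.97, and Lum, Bgn, Postn, Thbs2 and Sparc, which stood high in WT 1, lay farther below 0. For each of these 5 the highest adjusted p over the alternatives was 0.99997. Since the tissue is a mixture, fewer fibroblasts and less of an RNA per fibroblast cannot be told apart.

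**Figure D1:**
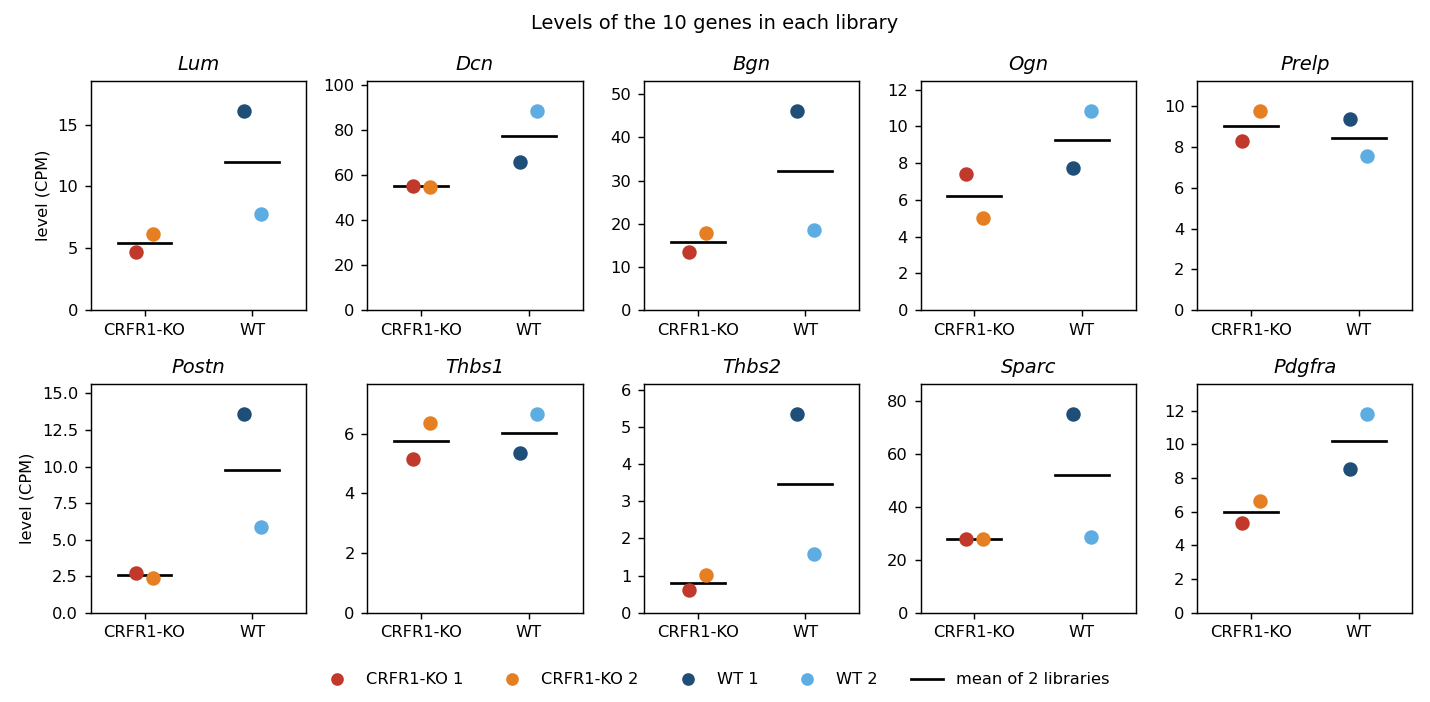
Levels of the 10 genes in CPM (vertical axes, each starting at 0) in the CRFR1-KO libraries (left in each panel) and the WT libraries (right). Each point is a library and each bar the mean of 2 libraries. WT 1 stands far above the other 3 libraries for Lum, Bgn, Postn, Thbs2 and Sparc, whereas WT 2 is the highest library for Dcn, Ogn, Thbs1 and Pdgfra.

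The promoters of 4 of these genes are shown to set the sequence beside both kinds of pattern in the values: Postn, Thbs2 and Bgn, which stood highest in WT 1, and Ogn, which stood highest in WT 2. Each line gives the 250 bases before the start of the gene in RefSeq on GRCm38.p6, 5′ to 3′ on the gene's own strand, with capitals on the letters of any motif searched. The motifs, each read on both strands, were the TATA box (TATAAA), the CCAAT box (CCAAT), the GC box (GGGCGG) and the sites of AP-1 (TGANTCA), TEAD (GGAATG) and SMAD (CAGACA).
Postn, chr3:54360857-54361106, plus strand: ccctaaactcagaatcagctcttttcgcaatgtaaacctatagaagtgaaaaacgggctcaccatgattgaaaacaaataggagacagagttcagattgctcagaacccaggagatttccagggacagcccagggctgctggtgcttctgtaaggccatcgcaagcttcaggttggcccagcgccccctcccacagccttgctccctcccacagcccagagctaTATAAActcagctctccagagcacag
Thbs2, chr17:14694263-14694512, minus strand: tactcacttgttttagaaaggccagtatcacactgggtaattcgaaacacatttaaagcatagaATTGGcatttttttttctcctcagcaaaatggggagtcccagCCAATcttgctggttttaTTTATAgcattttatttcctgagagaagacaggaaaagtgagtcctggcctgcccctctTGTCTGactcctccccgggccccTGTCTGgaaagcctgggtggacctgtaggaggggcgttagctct
Bgn, chrX:73483351-73483600, plus strand: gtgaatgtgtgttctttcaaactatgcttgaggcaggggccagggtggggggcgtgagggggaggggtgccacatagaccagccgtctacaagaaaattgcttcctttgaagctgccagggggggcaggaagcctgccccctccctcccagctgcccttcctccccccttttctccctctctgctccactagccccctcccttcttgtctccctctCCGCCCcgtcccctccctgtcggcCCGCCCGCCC
Ogn, chr13:49607765-49608014, plus strand: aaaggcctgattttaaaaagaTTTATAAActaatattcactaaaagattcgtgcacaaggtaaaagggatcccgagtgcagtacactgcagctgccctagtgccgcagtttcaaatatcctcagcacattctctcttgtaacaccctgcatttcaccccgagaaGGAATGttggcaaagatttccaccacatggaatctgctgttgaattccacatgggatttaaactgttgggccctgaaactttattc

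The Postn window carried a TATA box from -26 to -21 relative to the start and no other motif searched. In Thbs2 there were 2 CCAAT boxes, a TATA box from -126 to -121, and SMAD motifs at -67 to -62 and -44 to -39. Bgn had 3 GC boxes, of which the pair nearest the start overlap each other, and Ogn had overlapping TATA matches far upstream and a TEAD motif from -86 to -81. Among all 32851 promoter windows of the same length in the table, 12.4% held the TATA letters, 33.8% CCAAT, 32.7% the GC box, 6.75% AP-1, 12.6% TEAD and 17.1% SMAD. The TATA letters stood in the window of Postn and, on the opposite strand, in that of Thbs2, but not in that of Bgn. No motif of the search was common to all 3 of those genes, which were picked after the values were seen. Any link of a motif to the levels was not tested. The window of Sparc, also highest in WT 1 and not printed here, held 1 motif of the search, a SMAD motif from -36 to -31. RefSeq windows were at hand for 7 of the 10 genes, and the one for Postn that starts farther upstream held none of the motifs.

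Dcn encodes decorin, which binds collagen fibrils through its core protein and also holds TGF-beta. Its level was 55.3 and 54.5 CPM in CRFR1-KO 1 and 2, against 65.7 and 88.4 CPM in WT 1 and 2. The CRFR1-KO libraries were nearly equal and both lay below WT. Decorin RNA thus averaged 54.9 ± 0.549 CPM in CRFR1-KO and 77.0 ± 16.05 CPM in WT (SD, n = 2 libraries each), a log2 fold change of -0.49 with a standard error (SE) of 0.20 (edgeR adjusted p = 0.9999). The difference was smaller against WT 1 than against WT 2, with a log2 fold change of -0.69 without WT 1 and -0.26 without WT 2.

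Bgn encodes biglycan, the closest relative of decorin, which in soluble form is also a ligand of the Toll-like receptors TLR2 and TLR4. Its level was 13.4 and 17.9 CPM in CRFR1-KO 1 and 2, against 46.1 and 18.5 CPM in WT 1 and 2. Thus WT 2 lay just above the higher CRFR1-KO library and WT 1 far above all others. Bgn had a log2 fold change of -1.04 (SE 0.40, edgeR adjusted p = 0.9999), and of -0.23 without WT 1. Without WT 2 it was -1.55.

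Lum encodes lumican, which regulates the assembly of collagen fibrils. Lumican RNA stood at 4.67 and 6.17 CPM in CRFR1-KO 1 and 2, against 16.1 and 7.81 CPM in WT 1 and 2. The groups did not overlap, and the gap between the WT libraries was wider than that between WT 2 and either CRFR1-KO library. For Lum the log2 fold change was -1.14 (SE 0.34, 95% interval -1.95 to -0.33, edgeR adjusted p = 0.901). It was -0.52 without WT 1 and -1.57 without WT 2.

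Ogn encodes osteoglycin, also called mimecan, a smaller member of the family. It had 7.42 and 5.04 CPM in CRFR1-KO 1 and 2, against 7.73 and 10.8 CPM in WT 1 and 2. CRFR1-KO 1 came close to WT 1, so the groups were only just separate. Ogn had a log2 fold change of -0.57 (SE 0.26, edgeR adjusted p = 0.9999), -0.80 without WT 1 and -0.31 without WT 2.

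Prelp encodes a family member with an arginine- and proline-rich end that tethers basement membrane to collagen. Unlike the other proteoglycan genes it stood at similar levels in all libraries, with 8.29 and 9.78 CPM in CRFR1-KO 1 and 2, against 9.36 and 7.55 CPM in WT 1 and 2. The groups overlapped. Its log2 fold change was 0.09 (SE 0.20, 95% interval -0.37 to 0.56, edgeR adjusted p = 0.9999), and it was 0.26 without WT 1, -0.05 without WT 2, -0.02 without CRFR1-KO 2 and -0.04 when scaled on library totals.

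Several of these proteoglycan genes lie in clusters left by ancient duplications. On GRCm38 in GENCODE M21, Dcn (chromosome 10, 97479609 to 97518143) is followed by Lum (97565128 to 97572703), Kera and Epyc, and the last 2 had a count of 0 in all 4 libraries. Dcn and Lum, 46984 bp apart, did not share a pattern across the WT libraries: WT 1 over WT 2 was 0.743-fold for Dcn and 2.06-fold for Lum. The chromosome 13 cluster runs through Ecm2, Aspn, Omd and Ogn (49608046 to 49624501). Its member Aspn, encoding asporin, had 0.896 and 0.901 CPM in CRFR1-KO 1 and 2, against 3.46 and 2.09 CPM in WT 1 and 2 (log2 fold change -1.63, SE 0.37, edgeR adjusted p = 0.718). Omd, encoding osteomodulin, had deposited counts of 4 and 0 in CRFR1-KO 1 and 2, against 49 and 18 in WT 1 and 2. Ecm2 counts were 87 and 148 in CRFR1-KO 1 and 2, against 189 and 88 in WT 1 and 2, so the groups overlapped. On chromosome 1 the neighbours of Prelp (133910304 to 133921414) are Optc, at 0 in all 4 libraries, and Fmod, at 71 and 29 counts in CRFR1-KO 1 and 2, against 80 and 51 in WT 1 and 2. Bgn (73483602 to 73495933) lies on the X chromosome.

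Among the matricellular genes, Postn (chromosome 3, 54361109 to 54391037, GRCm38) encodes periostin, which supports collagen crosslinking and binds integrins. It stood at 2.75 and 2.35 CPM in CRFR1-KO 1 and 2, against 13.6 and 5.87 CPM in WT 1 and 2. The CRFR1-KO libraries were close to each other and below WT 2, and WT 1 stood above WT 2. For Postn the log2 fold change was -1.93 (SE 0.39, 95% interval -2.86 to -1.01, edgeR adjusted p = 0.586). It was -1.20 without WT 1 and -2.41 without WT 2. The DESeq2 Wald test on all 4 libraries called Postn lower (adjusted p = 0.00188).

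Thbs2 (chromosome 17, 14665500 to 14694235) encodes thrombospondin-2, a fibroblast product that restrains vessel growth and matrix protease levels. It had 38 and 66 deposited counts in CRFR1-KO 1 and 2, against 443 and 104 in WT 1 and 2. In CPM this was 0.608 and 1.01 in CRFR1-KO 1 and 2, against 5.36 and 1.59 in WT 1 and 2, so WT 1 lay far above the other 3 libraries. The log2 fold change was -2.10 with the widest SE of the 10 genes, 0.60 (95% interval -3.51 to -0.69, edgeR adjusted p = 0.839). It was -0.97 without WT 1 and -2.72 without WT 2.

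Thbs1 (chromosome 2, 118111876 to 118127133) encodes thrombospondin-1, which binds CD36 and CD47 and can activate latent TGF-beta, and which platelets, endothelium and macrophages make as well as fibroblasts. Its levels were 5.15 and 6.35 CPM in CRFR1-KO 1 and 2, against 5.37 and 6.68 CPM in WT 1 and 2. The libraries of the genotypes interleaved. The log2 fold change was -0.07 (SE 0.22, 95% interval -0.58 to 0.45, edgeR adjusted p = 0.9999), and -0.21 without WT 1. Its sign turned without WT 2 (0.10) and without CRFR1-KO 1 (0.08). Set beside Thbs1 in the same library, Thbs2 had 0.118 and 0.159 counts per Thbs1 count in CRFR1-KO 1 and 2, against 0.998 and 0.238 in WT 1 and 2.

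Sparc (chromosome 11, 55394500 to 55423183) encodes osteonectin, a collagen-binding glycoprotein of fibroblasts, endothelium and pericytes. The 2 CRFR1-KO libraries and WT 2 were almost equal, at 27.8 and 27.9 CPM in CRFR1-KO 1 and 2 and 28.8 CPM in WT 2, and WT 1 alone stood at 75.3 CPM. The log2 fold change of -0.90 (SE 0.40, edgeR adjusted p = 0.9999) therefore rested on WT 1, and it was -0.04 without that library. Without WT 2 it was -1.43.

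Pdgfra (chromosome 5, 75152292 to 75198215) encodes the alpha receptor for platelet-derived growth factor, a tyrosine kinase that marks fibroblasts in many tissues. It had 5.34 and 6.66 CPM in CRFR1-KO 1 and 2, against 8.55 and 11.8 CPM in WT 1 and 2. Here WT 2 was the higher WT library, and the groups did not overlap. The log2 fold change was -0.76 (SE 0.23, 95% interval -1.30 to -0.22, edgeR adjusted p = 0.899), -0.98 without WT 1 and -0.51 without WT 2. Its 1 exon-sharing gene model, the microRNA gene Mir7025, had at most 1 count in any library.

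**Figure D2:**
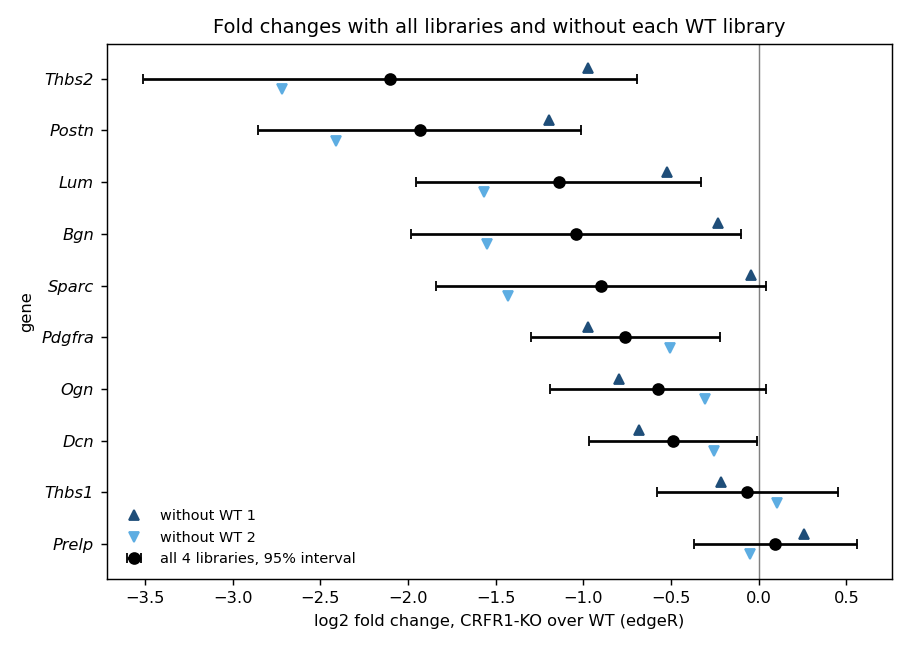
Log2 fold changes of CRFR1-KO over WT (horizontal axis, edgeR) for the 10 genes, with all 4 libraries and their 95% interval (black), without WT 1 (dark triangles) and without WT 2 (light triangles). Sparc and Bgn move to -0.04 and -0.23 without WT 1, whereas Pdgfra, Ogn and Dcn lie farther below 0 without WT 1 than with it.

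The 10 genes thus did not share a single profile over the libraries. Lum, Bgn, Postn, Thbs2 and Sparc were 2.06-fold to 3.37-fold higher in WT 1 than in WT 2, while Dcn, Ogn and Pdgfra were 0.713-fold to 0.743-fold as high in WT 1 as in WT 2. These groupings were made after the values were seen and carry no test. For Dcn, Ogn and Pdgfra, the CRFR1-KO mean was 0.508-fold to 0.621-fold of WT 2 and 0.702-fold to 0.836-fold of WT 1. Among the other 5, the CRFR1-KO mean was 0.151-fold to 0.371-fold of WT 1. Against WT 2 the same 5 spread widely, at 0.968-fold for Sparc, 0.849-fold for Bgn, 0.694-fold for Lum, 0.509-fold for Thbs2 and 0.435-fold for Postn.

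**Figure D3:**
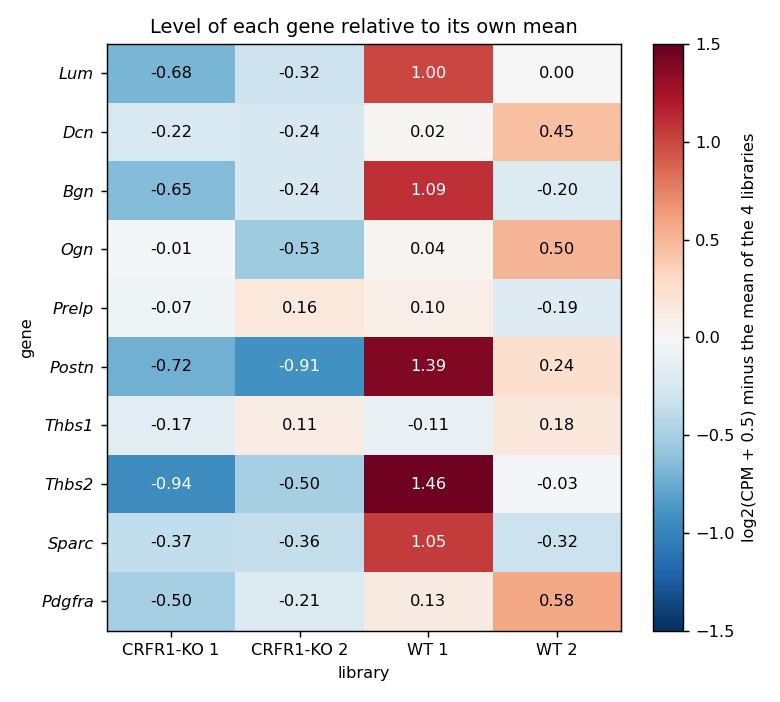
Level of each gene as log2(CPM + 0.5) minus its mean over the 4 libraries (colour and printed value), with genes as rows and libraries as columns. Postn and Thbs2 reach 1.39 and 1.46 in WT 1, Dcn and Ogn reach 0.45 and 0.50 in WT 2, and Prelp and Thbs1 stay between -0.19 and 0.18.

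Ratios to the Pdgfra count of the same library do not depend on scaling. Decorin had 10.3 and 8.18 counts per Pdgfra count in CRFR1-KO 1 and 2, against 7.68 and 7.47 in WT 1 and 2, so its ratio was higher in both CRFR1-KO libraries. Prelp had 1.55 and 1.47 in CRFR1-KO 1 and 2, against 1.09 and 0.638 in WT 1 and 2, and Thbs1 had 0.964 and 0.954 against 0.628 and 0.565. For these 3 genes both CRFR1-KO ratios lay above both WT ratios. How many of all gene models do so was not counted. Pdgfra itself was lower in both CRFR1-KO libraries. A gene at a flat level, as Prelp and Thbs1 nearly were, therefore has higher ratios there by the choice of denominator. The same holds for Dcn, which was itself lower in CRFR1-KO but less so than Pdgfra (log2 fold changes -0.49 and -0.76). Periostin had 0.515 and 0.353 counts per Pdgfra count in CRFR1-KO 1 and 2, against 1.59 and 0.496 in WT 1 and 2, so the groups overlapped. Sparc had 5.21 and 4.19 in CRFR1-KO 1 and 2, against 8.80 and 2.44 in WT 1 and 2, with WT 2 the lowest library. Within the proteoglycans, Bgn had 0.243 and 0.329 counts per Dcn count in CRFR1-KO 1 and 2, against 0.702 and 0.209 in WT 1 and 2. Lum had 0.0845 and 0.113 per Dcn count in CRFR1-KO 1 and 2, against 0.245 and 0.0883 in WT 1 and 2.

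**Figure D4:**
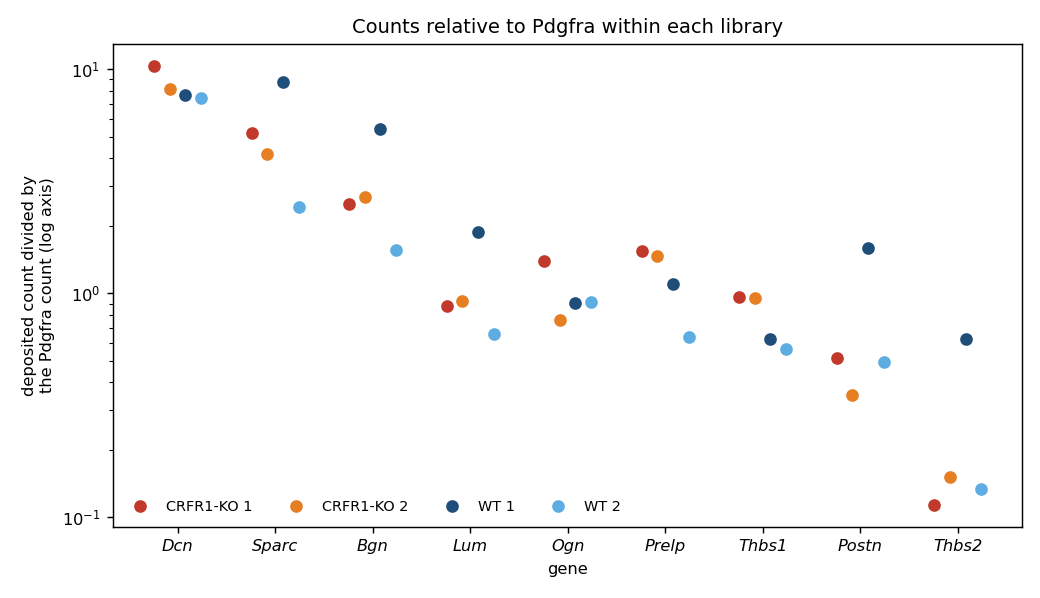
Deposited count of each of the other 9 genes divided by the Pdgfra count of the same library (vertical log axis), with CRFR1-KO libraries in warm and WT libraries in blue colours. WT 1 is the highest library for Sparc, Bgn, Lum, Postn and Thbs2, at 8.80 for Sparc and 0.627 for Thbs2, while for Dcn, Prelp and Thbs1 the lower CRFR1-KO library lies above the higher WT library. The denominator, Pdgfra, was lower in both CRFR1-KO libraries.

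Levels of different genes were ranked per length, as TPM (counts per base of exon, scaled to the same sum in each library) from merged GENCODE M21 exon lengths. Neighbours in the order were called apart where the gap between their means exceeded the sum of their SDs (n = 2 libraries each). Dcn led in CRFR1-KO, at 15.7 ± 1.21 TPM in CRFR1-KO and 24.0 ± 1.40 TPM in WT. Sparc followed it in CRFR1-KO and was apart from it there, at 12.3 ± 1.10 TPM in CRFR1-KO and 26.6 ± 19.8 TPM in WT. In WT this pair was within its spread. Bgn, Prelp, Ogn and Lum came next in CRFR1-KO, between 3.74 and 4.34 TPM and within their spread, in a group apart from those above and below it. In WT their order was Bgn at 10.2 ± 7.40, Lum at 9.35 ± 5.78, Ogn at 6.57 ± 0.578 and Prelp at 4.37 ± 1.31 TPM, where Ogn and Prelp alone were apart. Thbs1 at 1.60 ± 0.372 and Pdgfra at 1.01 ± 0.243 TPM in CRFR1-KO were within their spread, and both Postn, at 0.489 ± 0.0117 TPM, and Thbs2, at 0.196 ± 0.0845 TPM, stood apart from the gene before them. In WT, Postn at 2.16 ± 1.48, Pdgfra at 1.84 ± 0.143, Thbs1 at 1.81 ± 0.00440 and Thbs2 at 0.969 ± 0.841 TPM followed each other, with every neighbouring pair within its spread. Merged exons count every annotated isoform, so genes with long annotated ends are understated.

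Other genes of the same families were taken from lists, and 0 of their tested members passed the edgeR threshold over all genes. Of the other matricellular protein genes 16 of 17 were below WT, with a median log2 fold change of -0.45, and 1 of 17 was lower at an unadjusted edgeR p under 0.05, where 3.15% of all tested gene models were. At the same p, 2 of 7 other small leucine-rich proteoglycan genes, 1 of 17 other proteoglycan genes, 4 of 18 receptor genes, 2 of 6 platelet-derived growth factor genes, 1 of 20 chondroitin and dermatan sulfate genes, 0 of 4 keratan sulfate genes and 6 of 18 other fibroblast markers were lower. The matricellular gene past that p, Spp1, which encodes osteopontin and is also a duct cell gene, had 44.8 and 46.8 CPM in CRFR1-KO 1 and 2, against 134 and 72.9 CPM in WT 1 and 2 (log2 fold change -1.17, SE 0.29, edgeR adjusted p = 0.801). Smoc1, a calcium-binding relative of Sparc, stood at -0.36 (SE 0.17) and Ccn1, an integrin-binding early response gene, at -1.41 (SE 0.67) on the log2 scale. Leaving out WT 1, 12 of 16 genes lay below 0 and their median was -0.16.

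The other small leucine-rich proteoglycan genes were mixed, with 5 of 7 tested lying lower in CRFR1-KO and a median of -0.15 on the log2 scale. Besides Aspn and Omd, Podn, encoding podocan, had 1.18 and 1.83 CPM in CRFR1-KO 1 and 2, against 0.944 and 0.428 CPM in WT 1 and 2 (log2 fold change 1.13, SE 0.53, edgeR adjusted p = 0.9999). Without WT 1 the median was 0.07, with 3 of 8 below 0. Among proteoglycans of other kinds 12 of 17 were below WT (median -0.21), but without WT 1 the count was 9 of 18 with a median of -0.02. Gpc3, encoding the cell-surface heparan sulfate proteoglycan glypican-3, had 1.14 and 1.12 CPM in CRFR1-KO 1 and 2, against 2.84 and 4.09 CPM in WT 1 and 2 (log2 fold change -1.62, SE 0.32, edgeR adjusted p = 0.569). Esm1, an endothelial proteoglycan gene, stood at 1.19 (SE 0.59) and Gpc1 at -0.48 (SE 0.27) on the log2 scale.

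Receptors that bind these proteins also lay mostly lower, at 14 of 18 with a median of -0.21, and 12 of 18 with a median of -0.08 without WT 1. Cd36, a thrombospondin and fatty acid receptor of macrophages, endothelium and adipocytes, had 5.49 and 7.55 CPM in CRFR1-KO 1 and 2, against 10.8 and 11.9 CPM in WT 1 and 2 (log2 fold change -0.80, SE 0.21, edgeR adjusted p = 0.801). Lrp1, an endocytic receptor that clears thrombospondins and proteases, stood at -0.67 on the log2 scale. Itgb3, an integrin subunit that binds periostin and osteopontin, had deposited counts of 4 and 3 in CRFR1-KO 1 and 2, against 28 and 28 in WT 1 and 2.

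All 6 of the other platelet-derived growth factor genes tested were below WT, at a median log2 fold change of -0.33. Pdgfc, a ligand of the alpha receptor, had 1.07 and 0.947 CPM in CRFR1-KO 1 and 2, against 1.98 and 2.32 CPM in WT 1 and 2 (log2 fold change -1.09, SE 0.34, edgeR adjusted p = 0.941). Pdgfrb, the beta receptor gene of pericytes and fibroblasts, stood at -0.43 on the log2 scale. Pdgfrl, a receptor-like gene, had deposited counts of 3 and 3 in CRFR1-KO 1 and 2, against 88 and 21 in WT 1 and 2. Leaving out WT 1, 6 of 6 lay below 0 and their median was -0.32.

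Enzymes that build the glycosaminoglycan chains of these proteins were close to the middle of all genes. For chondroitin and dermatan sulfate, 12 of 20 genes were below WT at a median log2 fold change of -0.14, and without WT 1 the count was 7 of 21 with a median of 0.14. Chpf2, a chondroitin polymerising factor, stood at -0.46 and Xylt1, which starts the chain, at -0.39 on the log2 scale. The sulfotransferase gene Chst7 stood at 1.29 (SE 0.92). Its deposited counts were low, at 30 and 19 in CRFR1-KO 1 and 2, against 18 and 6 in WT 1 and 2. For keratan sulfate, 2 of 4 were below WT at a median of 0.11, and 1 of 4 without WT 1 at a median of 0.06, with B4galt4 at 0.50, Chst2 at -0.29 and St3gal1 at -0.35.

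**Figure D5:**
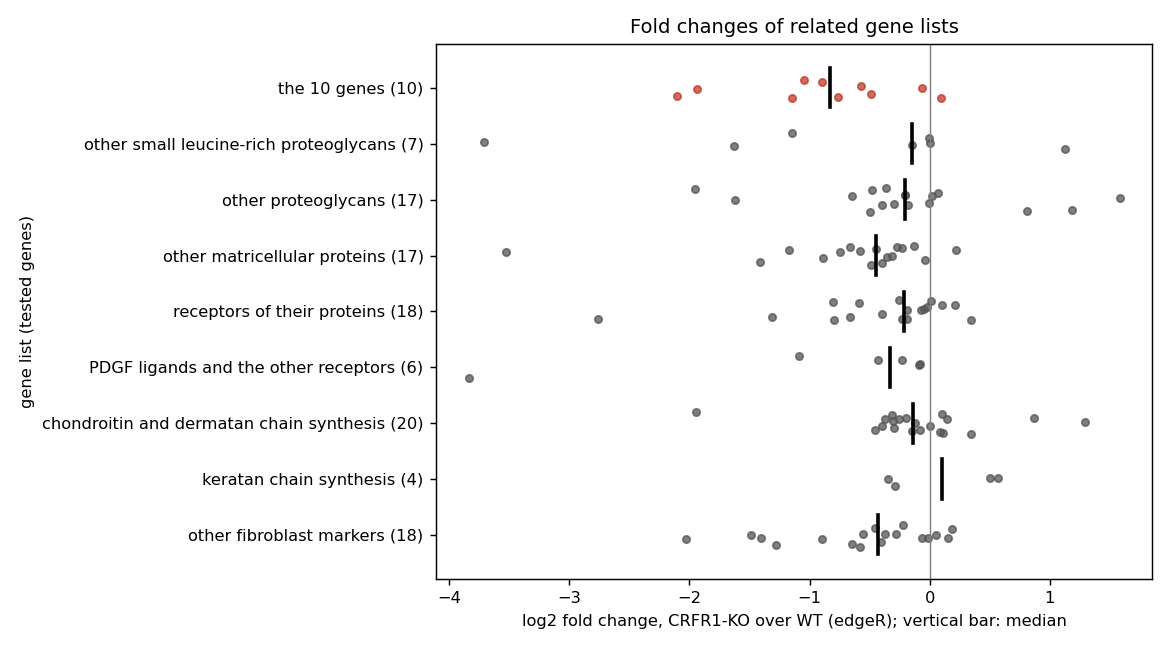
Log2 fold changes of CRFR1-KO over WT (horizontal axis, edgeR) for the 10 genes (red) and for related lists (grey), 1 point per tested gene, with a bar at each median. The median is -0.83 for the 10 genes, between -0.45 and -0.14 for 7 of the 8 related lists, and 0.11 for keratan sulfate synthesis.

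Markers of fibroblasts and of stellate cells and pericytes did not run alike over the libraries. Of 18 other fibroblast markers, all tested, 15 were below WT (median -0.43), and 11 of 18 without WT 1 (median -0.13). Their summed level was 149 and 190 CPM in CRFR1-KO 1 and 2, against 498 and 198 CPM in WT 1 and 2. The sum stood high in WT 1 alone, and collagen genes carried much of it. Col1a1 had 10.4 and 11.2 CPM in CRFR1-KO 1 and 2, against 73.4 and 14.5 CPM in WT 1 and 2. Col1a2, a chain of type I collagen, had 21.5 and 24.0 CPM in CRFR1-KO 1 and 2, against 96.1 and 31.1 CPM in WT 1 and 2. Mfap5, a microfibril gene, and Loxl1, a lysyl oxidase gene, stood at -1.41 and -0.90 on the log2 scale. For these genes both WT libraries lay above both CRFR1-KO libraries. Dpt and Gas1 stood near 0, at 0.05 (SE 0.33) and -0.06 (SE 0.23). Meox2, Tcf21 and Meox1 stood at -0.02, 0.19 and 0.15, but with SEs of 0.91, 1.04 and 0.49, too wide to call them unchanged. Among the 15 markers below WT were also Col3a1 at -1.28, Pi16 at -0.65, Clec3b at -0.58 and Fap at -0.45. The 10 smooth muscle, pericyte and stellate markers summed to 26.7 and 36.2 CPM in CRFR1-KO 1 and 2, against 34.7 and 37.4 CPM in WT 1 and 2, with Lrat at 0 in all libraries. WT 1 did not stand high for that list, whose 8 tested genes had a median of -0.39, and of -0.52 without WT 1.

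Other cell types differed between the libraries too. The 10 islet genes, none of them at 0 everywhere, summed to 246 and 307 CPM in CRFR1-KO 1 and 2, against 42.7 and 279.7 CPM in WT 1 and 2. The 10 macrophage genes summed to 46.5 and 75.3 CPM in CRFR1-KO 1 and 2, against 128 and 95.5 CPM in WT 1 and 2, and 9 of 9 tested were below WT. Their median log2 fold change was -0.84, much like the -0.83 of the 10 matrix genes. Without WT 1 it was -0.50, against -0.61 for the 10 matrix genes. A shift of this size was thus not particular to the 10 matrix genes. The 10 duct genes summed to 180 and 170 CPM in CRFR1-KO 1 and 2, against 292 and 202 CPM in WT 1 and 2. Spp1, named above as a matricellular gene, is in this sum, with 44.8 and 46.8 CPM against 134 and 72.9 CPM. Of the duct genes 8 of 10 were below WT, with a median log2 fold change of -0.59, and of -0.25 without WT 1. Endothelial genes, 12 in all, summed to 84.6 and 92.5 CPM in CRFR1-KO 1 and 2, against 92.7 and 87.8 CPM in WT 1 and 2, and platelet genes to 0.544 and 1.02 CPM in CRFR1-KO 1 and 2, against 1.52 and 0.749 CPM in WT 1 and 2, with Ppbp, Gp9 and Treml1 at 0 everywhere. Of the 10 mast cell genes, 6 (Cma1, Mcpt4, Tpsb2, Tpsab1, Fcer1a and Ms4a2) were at 0 in all libraries. The part of these differences in tissue content in the values of the 10 genes was not tested.

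Among genes with a mean of at least 5 CPM, the 5 whose profile lay nearest to the mean profile of the 10 were Unc93b1, Naip6, Fcgrt, Tgfbr2 and Col14a1. Likeness was the root mean square difference of log2(CPM + 0.5), centred over the 4 libraries, and ran from 0.0433 for Unc93b1 to 0.0786 for Col14a1. The nearest, Unc93b1, had 3.95 and 4.34 CPM in CRFR1-KO 1 and 2, against 8.67 and 5.58 CPM in WT 1 and 2. In the same order, Naip6 had 4.66 and 4.72 CPM against 10.4 and 6.83 CPM, and Fcgrt 3.25 and 4.06 CPM against 8.19 and 5.39 CPM. Tgfbr2, a TGF-beta receptor gene, had 6.38 and 7.21 CPM in CRFR1-KO 1 and 2, against 14.6 and 11.05 CPM in WT 1 and 2. Col14a1, encoding a collagen that associates with fibrils, had 6.10 and 6.58 CPM in CRFR1-KO 1 and 2, against 11.4 and 8.62 CPM in WT 1 and 2. The members themselves lay farther from their mean, between 0.236 for Lum and 0.518 for Postn.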

How the data were processed

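The deposited table holds whole-number counts per Ensembl gene for 4 mouse libraries, as the authors made them, without normalization. Per the labels' protocols, polyadenylated RNA was captured and libraries kept strand by dUTP. FastQC, DESeq2 and edgeR are named in the submitters' processing notes, with no role. No aligner, counter, annotation or build is named there. Counts of 4 were more frequent than their neighbours (913 genes against 349 at 3 and 242 at 5 in WT 1), so a deposited count may not equal 1 read or fragment.

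Symbols and positions came from GENCODE M21 on GRCm38 (55141 of 55401 identifiers matched). Genes were filtered with filterByExpr, scaled by the trimmed mean of M values and tested with edgeR 4.0.16 in R 4.3.3 (quasi-likelihood, two-sided, genotype as the sole term). P-values were adjusted over all 15131 tested genes, and SEs came from the F statistic. CPM use the scaled library sizes. An exact permutation test of 2 against 2 cannot go below p = 0.333, so none was used. Alternatives were other scalings, filters, DESeq2 1.42.0, limma-voom (limma 3.58.1), a replicate block, each library left out, exon-sharing models summed and counts divided by 4. Replicate numbers do not pair animals in the labels.

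The 10 genes and the lists were chosen with earlier results of these data known. Named genes were the 10, up to 3 of smallest edgeR p per related list, and the 5 nearest profiles at a mean of at least 5 CPM. Some further members of the lists are named as well.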

Additional observations from a re-analysis of the deposited data

How the results depend on the processing

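With all 4 libraries, 4 gene models were called by edgeR. The number was 58 by DESeq2, 0 by limma-voom (692 at an unadjusted p under 0.05), 0 with exon-sharing models summed (701), 7 with a replicate block, and between 0 and 69 with a library left out. The replicate block changed no call among the 10 genes. Libraries with the same number did not deviate together (r = -0.09 over 10895 genes, which are not independent), so the numbers were not taken as pairs. The median log2 fold change of the 10 genes, -0.83, lay between -0.61 (without WT 1) and -0.97 (without WT 2) with a library left out, and within the spread between libraries in every other setting. Without WT 2, Lum, Bgn, Postn, Thbs2 and Sparc moved farther below 0, to -1.57, -1.55, -2.41, -2.72 and -1.43. Without WT 1 the same genes moved closer to 0, to -0.52, -0.23, -1.20, -0.97 and -0.04. Leaving out a library leaves its genotype a lone library, assumed to vary like the other genotype. Prelp turned to -0.043 on library totals, -0.048 without WT 2 and -0.020 without CRFR1-KO 2, and lay between -0.048 and 0.260 with a library left out. Thbs1 turned to 0.104 without WT 2 and 0.079 without CRFR1-KO 1, and lay between -0.216 and 0.104 with a library left out. The cause was not tested. Library totals shifted the median of all genes to -0.13. Over the alternatives, 129 values of the 10 genes kept their direction and side of the threshold, and 5 turned sign. The rest came past the threshold: Postn by DESeq2, and Lum, Bgn, Postn, Thbs2 and Sparc without WT 2. In that fit WT 1 was the lone WT library, and these genes stood high in it.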
